A study of Mus musculus with 8 samples.

Results

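The 10 genes described here encode Smad proteins and the regulators that hold Smad signalling in check, and all 10 were found by their symbols among the 15111 genes of the deposited table. They comprise the receptor-regulated Smads *Smad2* and *Smad3*, the common-partner Smad *Smad4*, the inhibitory Smads *Smad6* and *Smad7*, the co-repressors *Ski*, *Skil* and *Tgif1*, and the feedback inhibitors *Pmepa1* and *Bambi*. They were chosen for these roles in the pathway and not for their values, though with earlier results of these data known. RNA was sequenced from primary dermal fibroblasts of mice that all carried floxed *Tgfb1* alleles, with 4 libraries per group. TGFβ1FKO mice (Tgfb1fl/fl:Col1a2-CreERT) also carried a Cre recombinase that tamoxifen activates in cells using the *Col1a2* promoter, whereas control mice (Tgfb1fl/fl) carried no Cre. Mice of both groups had received tamoxifen in the feed from week 4 and were killed at 10 weeks of age, and the cells from their back skin were grown in medium with serum and then kept for 72 h in serum-free medium, on fibronectin according to the labels. Neither the labels nor the methods state whether each library came from a separate mouse. The p-values thus set the difference between groups against a spread between these libraries that may be technical. The recombination is directed to fibroblasts by a *Col1a2* promoter fused to an enhancer, and the paper does not fully exclude that other cell types were affected. No sort of the cells before culture is described.

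TGFβ ligands bind a pair of serine/threonine kinase receptors, which phosphorylate Smad2 and Smad3. These bind Smad4, enter the nucleus and regulate target genes together with partner factors, co-activators and co-repressors. Several targets feed back on the pathway, among them *Smad7*, *Skil*, *Pmepa1* and *Bambi*, and the pathway is known for driving matrix synthesis by dermal fibroblasts. The question put to these 10 genes was whether their RNA levels differed between control fibroblasts and fibroblasts in which deletion of *Tgfb1* had been induced. RNA levels do not measure the phosphorylation or location of Smad proteins.

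Values are normalised read counts, that is, the reads on a gene scaled by the size factor that the authors estimated for each library. The depth recovered from these values was 16988998 to 21806579 reads in control libraries and 17445002 to 23071528 in TGFβ1FKO libraries. *Tgfb1* (chr7:25687002-25705077, GRCm38), the deleted gene, had normalised read counts of 1401, 1298, 1483 and 1314 in control libraries and of 326.4, 259.9, 228.4 and 294.7 in TGFβ1FKO libraries. It was thus at 20.2% of the control level, and every library stood on the side its label gives. All 10 fibroblast markers examined were in the table, with *Col1a1* at a mean of 653489 in control and 664781 in TGFβ1FKO libraries. The 8 Schwann cell markers examined in the table were lower in TGFβ1FKO libraries, 3 of them past the thresholds used below, and summed to between 1726 and 2488 in control and between 900.1 and 1814 in TGFβ1FKO libraries. *Ngfr* made up most of these sums, and the other 7 summed to between 475.0 and 1049 in control and between 211.3 and 302.1 in TGFβ1FKO libraries, which did not overlap. The median log2 fold change of the 8 was −2.35. The 8 endothelial markers were lower as well, none past those thresholds, and summed to between 538.3 and 829.8 and to between 521.0 and 560.3, respectively. Of the keratinocyte markers, 2 of 7 were in the table, without *Krt5* and *Krt14*, and the 4 macrophage markers of 7, without *Ptprc*, summed to between 561.0 and 644.9 in control and between 372.0 and 615.2 in TGFβ1FKO libraries. The 6 of 7 markers of pericytes or smooth muscle summed to between 1678 and 2410 in control and between 1803 and 2470.3 in TGFβ1FKO libraries. Of these 6, 3 were lower and 3 higher in TGFβ1FKO libraries, none past those thresholds, with *Cspg4* at 68.6% and *Myh11* at 166% of control. The 3 of 6 melanocyte markers summed to between 215.1 and 332.8 and to between 219.2 and 308.6, respectively. The skeletal muscle marker in the table, 1 of 5, ranged from 526.4 to 871.5 and from 636.9 to 881.9. None of the 5 adipocyte markers was in the table. The part of other cell types in the values below was not tested, and in bulk RNA fewer cells of a type and less RNA per cell cannot be told apart.

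None of the 10 genes differed between the groups past the thresholds, which were a log2 fold change beyond 0.6 in either direction and, in limma's moderated test across all 15111 genes, an adjusted p-value under 0.05. Of all genes 0.0860%, or 13, passed them. The adjusted p-values of the 10 genes lay between 0.566 and 0.993. At an unadjusted p-value under 0.05 stood 1 of the 10, *Pmepa1*, beside 7.46% of all genes, and edgeR and DESeq2 also called 0 of the 10. *Pmepa1* was the 1 gene of the 10 with groups that did not overlap, which held for 3.79% of all genes in either direction and for 2.10% with TGFβ1FKO libraries lower. The mean was lower in TGFβ1FKO fibroblasts for 7 of the 10 genes, or 70.0%, beside 49.1% of all genes. The median log2 fold change, TGFβ1FKO against control, was −0.05 for the 10 genes and 0.00 for all genes. For 9 of the 10 genes the 95% interval of the log2 fold change lay within the 0.6 threshold on both sides, and *Bambi* was the exception.

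**Figure D1:**
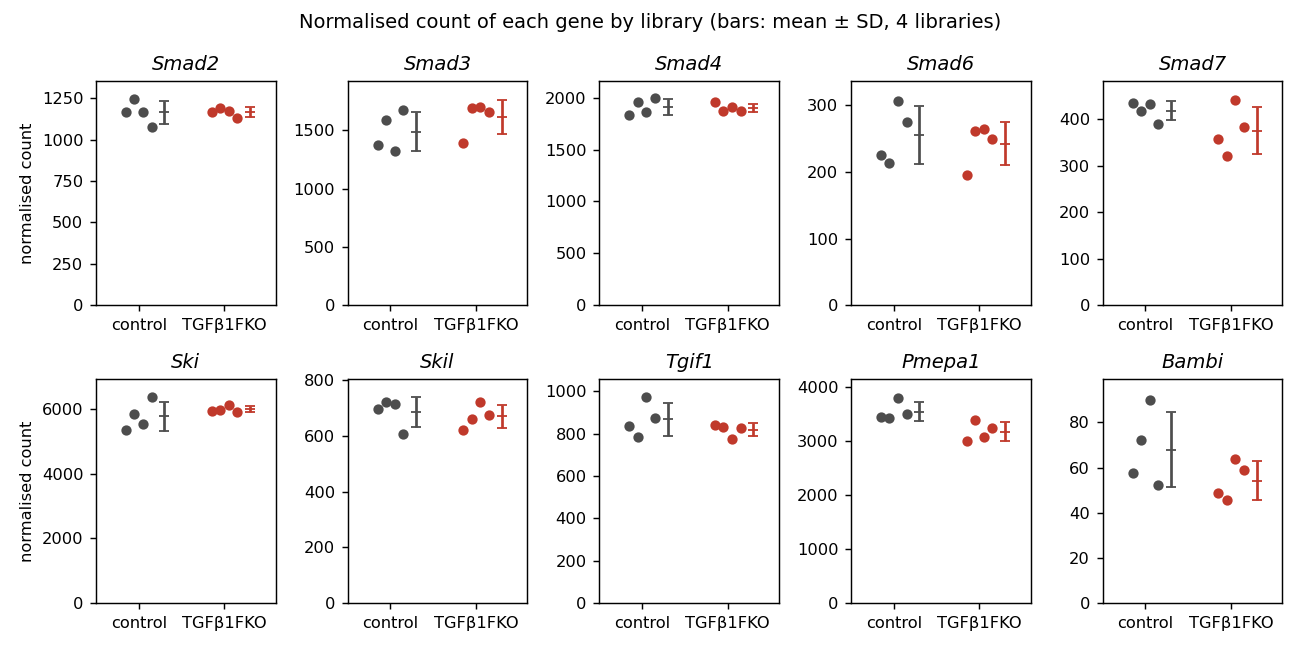
Normalised read counts of the 10 genes in each of the 4 control and 4 TGFβ1FKO libraries, 1 panel per gene, with points for libraries and bars for the group mean and SD. The groups overlap in every panel except that of *Pmepa1*, where the lowest control library is at 3436 and the highest TGFβ1FKO library at 3384.

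The receptor-regulated *Smad2* and the common partner *Smad4* had near-equal means in the groups. *Smad2* had normalised read counts of 1169, 1245, 1168 and 1076 in control libraries and of 1169, 1194, 1176 and 1129 in TGFβ1FKO libraries. All 4 TGFβ1FKO values lay within the range of the controls. The means were 1164 ± 69.5 and 1167 ± 27.4 (SD, n = 4 libraries each), with a log2 fold change of 0.00 (95% interval −0.12 to 0.13, limma adjusted p = 0.993). *Smad4* had values of 1835, 1955, 1864 and 1993 in control and of 1954, 1872, 1909 and 1875 in TGFβ1FKO libraries, again all within the control range. Its log2 fold change was −0.01 (95% interval −0.11 to 0.10, limma adjusted p = 0.988), the narrowest interval among the 10 genes.

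*Smad3*, which unlike the main form of Smad2 binds DNA directly, had values of 1375, 1588, 1319.5 and 1676 in control and of 1394, 1696, 1703 and 1655 in TGFβ1FKO libraries. In TGFβ1FKO fibroblasts 3 libraries lay close together near the upper end of the control range and replicate 1 lay near its lower end. The mean was 8.22% above control, at 1612 ± 147 against 1489.7 ± 170 (SD, n = 4 each), with a log2 fold change of 0.12 ± 0.09 (SE, limma adjusted p = 0.798). Leaving out 1 library moved this value between 0.06 (without control replicate 3) and 0.18 (without TGFβ1FKO replicate 1).

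The inhibitory Smads compete with the receptor-regulated Smads at the receptor or for Smad4, and recruit ubiquitin ligases. *Smad7*, which blocks the TGFβ receptors, had values of 436.2, 417.6, 432.5 and 390.1 in control libraries and of 356.8, 321.0, 440.9 and 384.5 in TGFβ1FKO libraries. Of the TGFβ1FKO libraries 3 lay below all controls, while replicate 3 lay above them all. The mean was 89.7% of control, with a log2 fold change of −0.17 ± 0.10 (SE, 95% interval −0.37 to 0.04, limma adjusted p = 0.725). Leaving out 1 library moved this value between −0.24 (without TGFβ1FKO replicate 3) and −0.09 (without TGFβ1FKO replicate 2, the lowest library). *Smad6*, which acts mainly on the BMP branch, had values of 225.4, 213.6, 306.0 and 275.5 in control and of 195.6, 261.0, 264.1 and 249.3 in TGFβ1FKO libraries. These overlapped widely, and the log2 fold change was −0.07 (95% interval −0.36 to 0.22, limma adjusted p = 0.934).

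The co-repressors bind activated Smad complexes and bring histone deacetylases to target genes. *Ski* had values of 5356, 5849, 5541 and 6380.0 in control libraries and of 5946, 5993, 6135 and 5929.6 in TGFβ1FKO libraries. The control libraries were spread more widely, with a coefficient of variation of 7.75% against 1.55%, where counting error alone gives 1.31% and 1.28%. Its log2 fold change was 0.06 (95% interval −0.07 to 0.18, limma adjusted p = 0.852), and it was 0.02 without control replicate 1, the lowest library, and 0.11 without control replicate 4, the highest. *Skil*, which encodes the Ski relative SnoN and is a target of the pathway itself, had values of 696.0, 723.6, 715.2 and 605.4 in control and of 620.3, 661.8, 721.6 and 676.9 in TGFβ1FKO libraries. All 4 TGFβ1FKO values again lay within the control range, and the log2 fold change was −0.03 (95% interval −0.19 to 0.13, limma adjusted p = 0.951). *Tgif1*, a homeodomain co-repressor, had values of 837.1, 786.2, 971.4 and 875.0 in control and of 840.3, 833.7, 774.7 and 827.6 in TGFβ1FKO libraries. The groups overlapped, with a log2 fold change of −0.08 (95% interval −0.23 to 0.07, limma adjusted p = 0.823), and without control replicate 3, the highest library, it was −0.02.

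The feedback inhibitors act near the receptor. *Pmepa1*, a membrane protein that binds receptor-regulated Smads and keeps them from activation, had values of 3451, 3436, 3810.0 and 3501 in control libraries and of 3001, 3384, 3075 and 3243 in TGFβ1FKO libraries. Every TGFβ1FKO library lay below every control library, the gap between the nearest of them being narrow. The mean was 3176 ± 172 against 3549 ± 176 (SD, n = 4 each), which is 89.5% of control (95% interval 82.3% to 97.3%). The log2 fold change was −0.16 ± 0.06 (SE), with an adjusted p-value of 0.566 in limma's test, and 352 genes of the table had a smaller unadjusted p-value. A two-sided exact permutation test over the 8 libraries gave *Pmepa1* p = 0.0286, the smallest that 4 libraries against 4 allow and not corrected for the 10 genes, for which the other 9 exact permutation p-values were 0.2 or higher. The permutation test restates that the groups did not overlap. In limma's test the difference did not hold after correction over all genes. Without control replicate 3, the highest library, the log2 fold change was −0.13.

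*Bambi*, which encodes a pseudoreceptor without kinase activity, had values of 57.6, 72.2, 89.8 and 52.3 in control and of 48.7, 45.6, 63.9 and 58.7 in TGFβ1FKO libraries. It was read 44 to 81 times per library and varied most between control libraries. The coefficient of variation there was 24.7%, where counting error alone gives 12.2%. The mean was 79.7% of control, with a log2 fold change of −0.30 ± 0.20 (SE, 95% interval −0.74 to 0.13, limma adjusted p = 0.753). The interval of *Bambi* reaches past a fall as large as the fold threshold and leaves out a rise of that size. Leaving out 1 library moved its log2 fold change between −0.42 (without control replicate 4) and −0.16 (without control replicate 3). *Bambi-ps1*, an annotated processed pseudogene of *Bambi*, was in the table with mean normalised read counts of 8.44 in control and 3.98 in TGFβ1FKO libraries, and *Bambi* reads shared with such a copy could not be assigned with certainty. Reads of *Tgif1* shared with its annotated processed pseudogene *Tgif1-ps*, for which no value is given here, could likewise not be assigned with certainty.

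**Figure D2:**
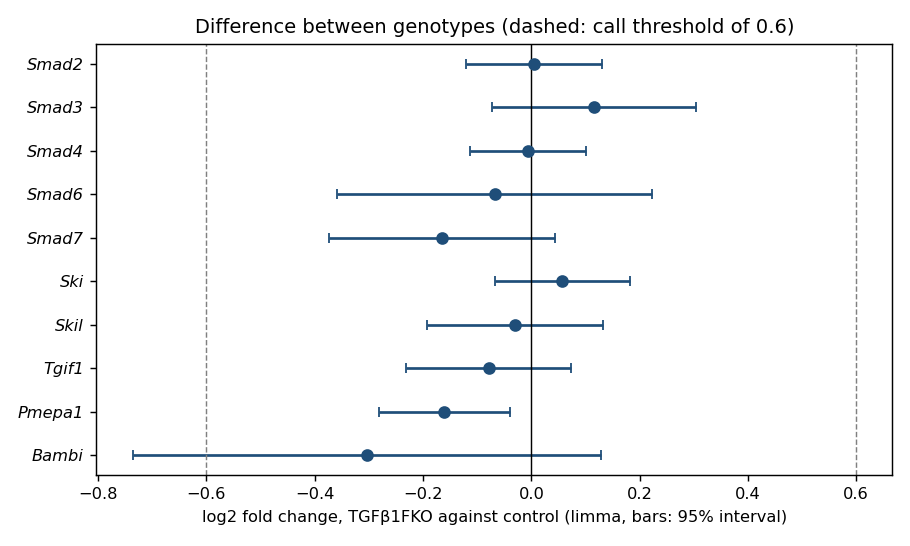
Log2 fold change, TGFβ1FKO against control, of the 10 genes with 95% intervals from limma, grouped by role, on a linear axis of log2 units. The interval of *Pmepa1* (−0.28 to −0.04) is the only one of the 10 that leaves out 0, and the interval of *Bambi* (−0.74 to 0.13) is the widest.

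Per kilobase of exon, the scale on which levels of different genes can be compared, the 10 genes spanned a wide range. The mean over the 8 libraries was highest for *Ski*, at 1059 normalised reads per kilobase, above 94.5% of the genes with a length. *Pmepa1* followed at 684.4, *Smad4* at 513.8 and *Smad3* at 279.8. *Tgif1* stood at 149.9, *Smad2* at 132.7, *Smad7* at 87.9, *Smad6* at 77.6 and *Skil* at 69.9, the last near the middle of all genes. *Bambi* was lowest at 12.05, above 19.8% of the genes. Neighbours in this order did not overlap between libraries of a group, with 3 exceptions. *Tgif1* and *Smad2* overlapped in control libraries and not in TGFβ1FKO libraries, while *Smad7* and *Smad6*, and *Smad6* and *Skil*, overlapped in both groups. The order is a description of levels, and exon lengths of the whole gene model stand in for those of the transcripts used by these cells.

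**Figure D3:**
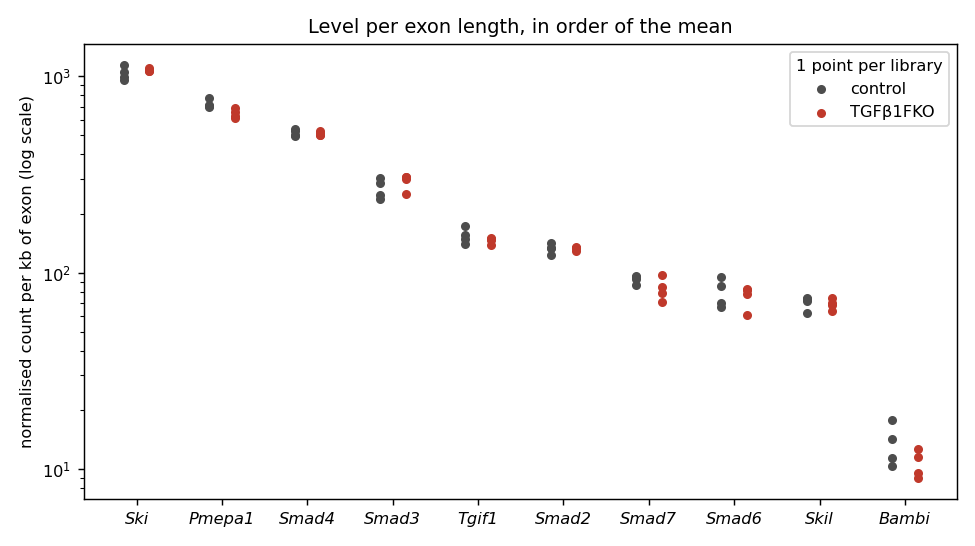
Normalised reads per kilobase of exon of the 10 genes in each library, on a log10 axis, ordered by the mean over all 8 libraries, with 1 point per library coloured by group. *Ski* is highest at 1059 and *Bambi* lowest at 12.05, and the points of *Smad7*, *Smad6* and *Skil* overlap.

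The genes *Smad3* and *Smad6* lie on the minus strand of chromosome 9, at chr9:63646767-63757994 and chr9:63953076-64022059, and *Tgif1* on the minus strand of chromosome 17, at chr17:70844205-70853546 (GRCm38). The 250 bases before the RefSeq start of each (GRCm38.p6) are shown because they are where Smads or Tgif1 could act on their own regulators. For *Tgif1* this is the window furthest upstream of its 5. Both strands were searched for the palindromic Smad-binding element GTCTAGAC, the Smad box CAGAC, the GC-rich core GGCGC and the TGIF core TGTCA, and the matching bases are in capitals. The sequences run 5′ to 3′ on the strand of the gene.

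*Smad3*, chr9:63757995-63758244: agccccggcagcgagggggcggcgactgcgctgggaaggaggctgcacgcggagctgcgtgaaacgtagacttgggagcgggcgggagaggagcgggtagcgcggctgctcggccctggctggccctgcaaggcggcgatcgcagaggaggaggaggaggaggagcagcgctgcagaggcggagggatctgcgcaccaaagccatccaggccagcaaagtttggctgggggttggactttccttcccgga
*Smad6*, chr9:64022060-64022309: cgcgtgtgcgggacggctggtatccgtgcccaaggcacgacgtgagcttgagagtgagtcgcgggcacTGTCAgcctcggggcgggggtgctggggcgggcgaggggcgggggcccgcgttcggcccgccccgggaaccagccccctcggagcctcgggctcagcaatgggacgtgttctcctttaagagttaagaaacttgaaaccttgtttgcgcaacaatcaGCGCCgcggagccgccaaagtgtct
*Tgif1*, chr17:70853533-70853782: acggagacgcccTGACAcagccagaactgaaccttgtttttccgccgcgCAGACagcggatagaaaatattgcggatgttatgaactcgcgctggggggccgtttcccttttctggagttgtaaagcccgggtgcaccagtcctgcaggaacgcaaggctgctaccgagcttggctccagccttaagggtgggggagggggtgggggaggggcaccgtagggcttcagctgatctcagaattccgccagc

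The *Smad3* window held none of the 4 motifs. *Smad6* held 1 GGCGC and 1 TGTCA, and the *Tgif1* window held 1 CAGAC and 1 TGTCA, each counted on either strand. Among all 32851 windows of this length in the table, 42.2% held CAGAC, 32.0% GGCGC, 40.0% TGTCA and 0.167% GTCTAGAC, so the matches were common ones. A match describes letters and not binding, and a window without one says nothing of the factor. The window of *Ski*, which is not printed, held 7 GGCGC matches with overlaps counted and none of the other motifs, and each of the other 4 *Tgif1* windows held at most 2 CAGAC, 1 GGCGC and 2 TGTCA. Windows of the other 6 genes were not used here. *Smad2*, *Smad4*, *Smad7* and *Bambi*, all on chromosome 18, were left out of the search, and *Skil* and *Pmepa1* had no promoter entry. The motif counts thus say nothing of these 6 genes, which include the feedback targets *Smad7*, *Skil*, *Pmepa1* and *Bambi*.

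The remaining genes lie at chr2:173224458-173276533 (*Pmepa1*, minus strand), chr3:31095058-31122577 (*Skil*, plus strand), chr4:155154075-155222592 (*Ski*, minus strand) and, on chromosome 18, at 3507923-3516404 (*Bambi*, plus strand), 73639009-73703780 (*Smad4*, minus strand), 75367529-75395935 (*Smad7*, plus strand) and 76241580-76310963 (*Smad2*, plus strand). The libraries did not mark strand. Exons of the 10 genes overlapped no exon of another annotated gene.

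A wider list of 66 genes that write, read, degrade or oppose Smad signals was examined in the same fit, of which 63 were in the table. None was called by limma, edgeR or DESeq2, 20 were lower and 43 higher in TGFβ1FKO fibroblasts, and their median log2 fold change was 0.04. At an unadjusted p-value under 0.05 stood 5 genes, 7.94%, beside 7.46% of all genes, and 2 genes had groups that did not overlap, 3.17% beside 3.79%. These 2 shares were near those of all genes, whereas the share of genes lower, 31.7%, was below the 49.1% of all genes. Leaving out 1 library, 17 to 26 of the 63 were lower. No test was made of this split, which is also to be read beside each of the counts by role that follow.

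Among the 3 other receptor-regulated Smads, which carry BMP signals, *Smad9* had values of 43.9, 61.6, 45.5 and 72.1 in control and of 84.1, 80.8, 65.6 and 75.3 in TGFβ1FKO libraries. The groups overlapped by a single TGFβ1FKO library, and the log2 fold change was 0.47 ± 0.19 (SE, limma adjusted p = 0.637). *Smad5*, with the highest count of the 3, had a mean of 1433 in both groups. Of 12 ubiquitin ligases and deubiquitinases 10 were higher, their median log2 fold change being 0.04, and *Usp9x*, a deubiquitinase of Smad4, had means of 2732 ± 516 and 2976 ± 255 (SD). The 7 phosphatases and kinases were divided, 4 lower and 3 higher, with *Ctdsp2*, a Smad linker phosphatase, at 4733 ± 325 and 4639 ± 173.

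Of 8 anchors and adaptors 6 were higher. *Cav1*, caveolin of the membrane domains through which receptors are internalised, had values of 12548, 10762, 10224 and 10098 in control and of 11868, 12998, 12851 and 13325 in TGFβ1FKO libraries. Control replicate 1 stood apart from the other controls and made the groups overlap, and the log2 fold change was 0.23 ± 0.07 (SE, limma adjusted p = 0.510). Of 11 co-repressors and partners 8 were higher. *Ctbp2*, a co-repressor of the CtBP family, had groups that did not overlap, at 562.0 to 670.9 in control and 672.1 to 716.8 in TGFβ1FKO libraries, with a log2 fold change of 0.15 ± 0.07 (SE, limma adjusted p = 0.671). Its relative *Ctbp1* had means of 3741 ± 115 and 3737 ± 73.5.

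Of 12 co-activators and partner factors 9 were higher. *Runx1*, a transcription factor that partners with Smads, had values of 799.2, 860.6, 881.5 and 618.2 in control and of 717.6, 547.8, 699.2 and 601.6 in TGFβ1FKO libraries, overlapping through control replicate 4. Its log2 fold change was −0.29 ± 0.12 (SE, limma adjusted p = 0.632). *Fos*, an AP-1 subunit, had the highest mean count of this group, 5093 ± 357 in control and 5499 ± 1383 in TGFβ1FKO libraries. Among 10 extracellular and membrane inhibitors, 5 lower and 5 higher, *Chrd*, the BMP antagonist chordin, had values of 137.6, 145.6, 180.7 and 167.9 in control and of 111.5, 105.6, 132.0 and 80.9 in TGFβ1FKO libraries. The groups did not overlap, with a log2 fold change of −0.56 ± 0.16 (SE, limma adjusted p = 0.444), the lowest adjusted p-value of the 63 genes. *Grem1*, the BMP antagonist gremlin, had means of 5833 ± 793 and 6764 ± 663, with a log2 fold change of 0.22 ± 0.09 (SE, limma adjusted p = 0.654).

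**Figure D4:**
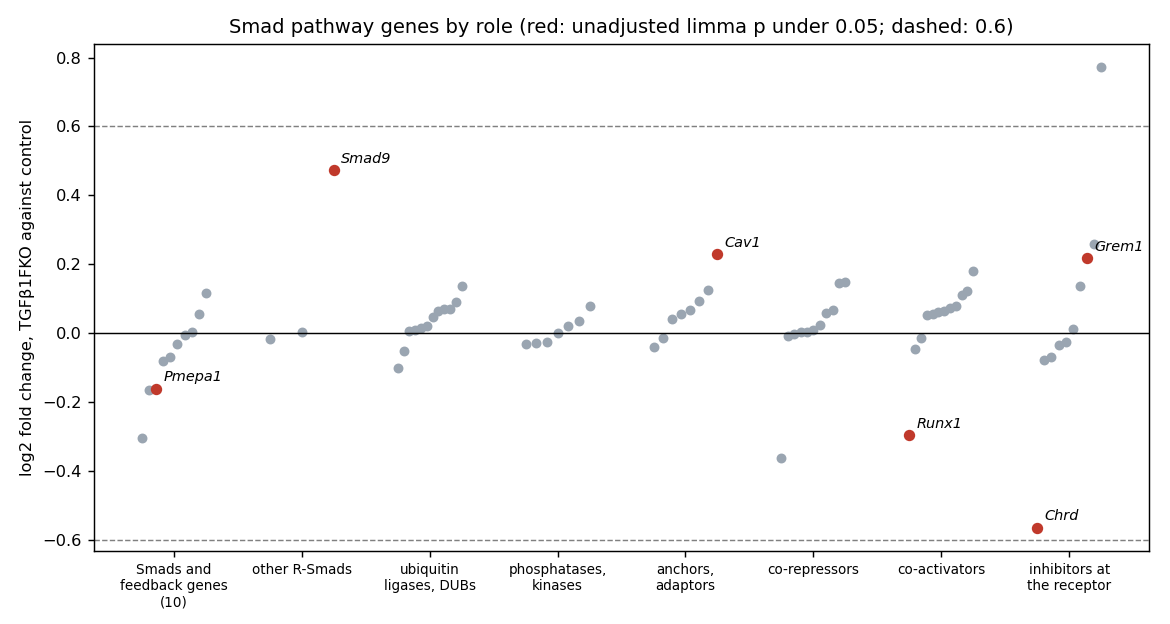
Log2 fold change, TGFβ1FKO against control, of the 10 genes and of the 63 other Smad pathway genes by role, with 1 point per gene on a linear axis of log2 units. Points lie on both sides of 0 in every role with more than 3 genes, and none of these genes passed the thresholds.

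Of the 11551 genes with a mean normalised read count of at least 50, those whose log2 values followed *Pmepa1* most closely over the 8 libraries were *Tmlhe*, which encodes an enzyme of carnitine synthesis (Pearson r = 0.975), *Pald1* (r = 0.938) and *Ripor3* (r = 0.937). In all, 14 of the 11551 genes had an r of at least 0.9, and whether chance alone gives as many was not tested. The 8 points include the difference between the groups and share the size factors of the libraries. *Ripor3* had a mean of 167 ± 37.5 in TGFβ1FKO and of 225 ± 36.1 in control libraries, *Pald1* of 106 ± 14.5 and 129 ± 13.7 and *Tmlhe* of 393 ± 16.3 and 425 ± 19.9, and the groups of all 3 overlapped.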

How the data were processed

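Bulk RNA of cultured dermal fibroblasts was sequenced from 4 control and 4 TGFβ1FKO samples, grouped by the genotype in the labels. The libraries were poly-A selected, paired-end and non-directional. The submitters' processing notes name CASAVA 1.8, HISAT2 2.0.5, featureCounts 1.5.0-p3, R 4.3.2 and DESeq2 1.42.0, with GRCm38. The authors deposited a normalised count, a signal that is never negative, for 15111 genes, made of reads divided by DESeq2 size factors with 0.5 added. Columns of the authors' own test, also deposited (a log2 fold change, p-values and, as a score, the Wald statistic), were not used.

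The 0.5 was subtracted, a pseudocount of 1 added, and the groups compared on the log2 scale by limma-trend (limma 3.58.1, R 4.3.3), 2-sided and adjusted by Benjamini-Hochberg over all genes. A log2 fold change on this scale understates the change of low genes. Reads recovered from the values were whole in 100% of cases and were tested with edgeR 4.0.16 and DESeq2 1.42.0 as alternatives. The fits were tested on simulated reads with changes of known size, all larger than those of the 10 genes. That test thus does not show how well changes as small as theirs are found. Any 2 libraries of a group differed by more than sampling noise, the lowest chi-square per degree of freedom being 5.14. The number of libraries and, for *Bambi*, the reads limit precision, and counting error leaves out PCR duplication. Other alternatives covered scaling, pseudocounts, a filter of 10 reads, the fold threshold, the replicate block and each library left out.

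The 10 genes, the other lists and the tests were chosen with earlier results of these data known. Other pathway genes are named where the unadjusted p-value was under 0.05, where groups did not overlap, or where the mean count was the highest of a role. For the gene of the 10 with the smallest p-value, the 3 genes most like it are named. *Bambi-ps1* and *Tgif1-ps* were named for their likeness to *Bambi* and *Tgif1*, outside this rule. Coordinates and exon lengths are from GENCODE M21 on GRCm38, and promoters from RefSeq on GRCm38.p6.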

Additional observations from a re-analysis of the deposited data

Results flagged for a closer look

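*Smad3* in TGFβ1FKO replicate 1 had a normalised read count of 1394, whereas the other TGFβ1FKO libraries lay between 1655 and 1703. Its gap to the nearest library was 0.845 of the range of the group, above the limit for 4 values. It was the single such library among the 20 groups of values examined for the 10 genes, and chance gives about 1 in 20. Without this library the log2 fold change of *Smad3* was 0.18 (limma adjusted p = 0.515), against 0.12 with it, and without control replicate 3 it was 0.06.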

How the results depend on the processing

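None of the 10 genes was called under any of the alternatives, the fold threshold being dropped in one of them. The count of genes called over the whole table was 13. It was 20 with edgeR, 56 with DESeq2, 3 where every library had to hold 10 reads (12946 genes tested) and 31 with the replicate block. It ranged from 5 to 32 when 1 library was left out, with 5 without control replicate 3, TGFβ1FKO replicate 2 or TGFβ1FKO replicate 4, 6 without control replicate 2, 7 without control replicate 1 and 32 without control replicate 4; the cause was not tested. Correlations between the deviations of same-numbered libraries were weak and of mixed sign (r = 0.156, −0.134, 0.0523 and 0.159). No control library correlated best with its own number. These correlations over many genes cannot tell whether same-numbered libraries shared a source.

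Of 150 values of the 10 genes under 15 alternatives, 140 kept their direction, and 10, all near 0, did not. With TMM scaling *Smad2* was at −0.00046 and *Smad5* at −0.0019 (log2 fold change), and 8 rather than 7 genes were lower. Leaving out 1 library, 5 to 7 were lower, and log2 fold changes ranged from −0.033 to 0.038 for *Smad2*, −0.026 to 0.014 for *Smad4*, −0.148 to 0.032 for *Smad6*, −0.088 to 0.0062 for *Skil*, −0.046 to 0.052 for *Smad5*, −0.022 to 0.014 for *Ctbp1* and −0.054 to 0.224 for *Fos*. *Pmepa1* ranged from −0.19 to −0.13 over all alternatives, with a lowest adjusted p of 0.429 (limma). Medians over all genes stayed between −0.0021 and 0.0060. Depth limits *Bambi*, the gene of the 10 with the fewest reads.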
